A study of Arabidopsis thaliana with 27 samples.

Results

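The xyloglucan endotransglucosylase/hydrolase (XTH) family of Arabidopsis thaliana comprises the genes XTH1 to XTH33, and these 33 loci were taken by their locus identifiers from a table of raw read counts that covers 32832 loci and holds a count somewhere for 26893 of them. A total of 31 family members had a count somewhere, and 26 had enough counts to be tested among 19794 genes. RNA was sequenced from excised etiolated hypocotyls of 3 genotypes, which were xpf-3 (mutated in UVH1, whose product cuts damaged DNA during repair), uvr8-6 (mutated in UVR8, which encodes the receptor for UV-B) and wild type Columbia-0 (WT). All groups shared an age of 2.5 days and germination in darkness on MS medium of 0.5 strength that contained the gibberellin GA4 at 100 µM. Seedlings then received no UV-B (dark), 3000 µmol m-2 of UV-B (low dose, 5 min) or 30000 µmol m-2 (high dose, 45 min), and darkness followed. Each of the 9 groups held 3 libraries, so that 27 libraries were compared. The protocol in the labels places the harvest 6 h after exposure, whereas the series title says 2 days, so the time is uncertain. Nothing in the labels says that the 3 libraries of a group came from separate cultures. The p-values weigh a difference against the spread between libraries within groups, estimated over all 27 libraries.

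XTH proteins act in the primary cell wall, where the hemicellulose xyloglucan coats and tethers cellulose microfibrils. Most of them cut a xyloglucan chain and join the new end to another chain (endotransglucosylase activity), which lets a wall extend without losing strength, and a few of them use water in place of the second chain (hydrolase activity). Dark-grown hypocotyls lengthen by expansion of existing cells, and many XTH genes are known to be expressed in such tissue and to respond to auxin, brassinosteroid, light and touch. By sequence the family is split into group I (XTH1 to XTH11 here), group II (XTH12 to XTH26), group IIIB (XTH27 to XTH30) and group IIIA (XTH31 and XTH32), with XTH33 apart.

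Enzymes of the family share a short catalytic site, and 32 of the 33 coding sequences held a stretch of 9 codons (27 bases) that translates to it. XTH11 was the member without a match, and whether it holds a variant of the site was not tested. The stretches of 9 members that carry the results are shown so that their likeness can be seen; they were read from the RefSeq genome TAIR10.1, 5′ to 3′ on the coding strand, and capitals mark bases that differ from XTH4.
XTH4 (AT2G06850, chr2:2764493-2764519, plus strand): gacgagatagactttgagttccttgga
XTH7 (AT4G37800, chr4:17776854-17776880, minus strand): gacgagCtTgaTtttgagttcTtAgga
XTH8 (AT1G11545, chr1:3879651-3879677, minus strand): gacgagatagaTttCgaAttTctAggG
XTH9 (AT4G03210, chr4:1416538-1416564, plus strand): AacgaATtCgaTtttgagttcTtAggG
XTH17 (AT1G65310, chr1:24257682-24257708, plus strand): gaTgagatCgaTttCgagttcTtGgga
XTH19 (AT4G30290, chr4:14829561-14829587, minus strand): gaTgagatTgaTttCgagttTTtGggG
XTH28 (AT1G14720, chr1:5067931-5067957, minus strand): gacgagatTgaTtttgagttTTtGggG
XTH30 (AT1G32170, chr1:11576260-11576286, plus strand): gacgagTtagacAtAgagttTctAggG
XTH33 (AT1G10550, chr1:3480306-3480332, minus strand): gacgagatagacAtAgaAttGTtGggT
Counted from 1 at the 5′ end, the change T13A relative to XTH4 was held by 5 members, which were XTH29, XTH30, XTH31, XTH32 and XTH33. XTH9 alone carried G1A, in the first codon of the stretch. XTH28, which rose in all 6 comparisons of UV-B with dark, and XTH4, which fell in all 6, differed at 6 of the 27 bases. XTH30 and XTH33, which both fell strongly, differed from XTH4 at 6 and 7 bases.

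Depth and sample identity were checked over the whole table. Libraries held 4508097 to 11045334 counts in xpf-3, 12488317 to 15342281 in uvr8-6 and 6163441 to 11984665 in WT. UVR8 averaged 3.504 ± 0.945 CPM in uvr8-6 dark and 70.6 ± 0.994 CPM in WT dark (CPM, counts scaled by the size of the library; SD, n = 3 each). UVH1 averaged 46.5 ± 6.25 CPM in xpf-3 dark and 19.2 ± 0.201 CPM in WT dark, so its transcript level does not mark the mutant by loss. Summed markers of etiolated tissue (PORA and HLS1) ran from 81.1 to 1289 CPM, so transcripts of etiolated tissue were present. Whether they came from the hypocotyl or from other etiolated organs was not tested. In their highest libraries 5 Casparian strip genes and 6 root hair genes summed to 1191 and 455.5 CPM, so that root-associated transcripts were present as well. Seed storage markers stayed at or under 12.6 CPM. The authors' notes place the uvr8-6 libraries in a later sequencing run than the others, so run and uvr8-6 genotype cannot be told apart. In bulk tissue, fewer cells of a type and less RNA per cell cannot be told apart either.

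As a whole the family carried much less RNA after UV-B. Summed over all members, expression was 10210, 11520 and 12100 CPM in the dark, 1858, 2133 and 1706 CPM at the low dose and 1673, 2789 and 1844 CPM at the high dose in xpf-3. In uvr8-6 the sums were 6217, 5378 and 7326 CPM in the dark, 4828, 3836 and 4061 CPM at the low dose and 2419, 2494 and 2109 CPM at the high dose, and in WT they were 7765, 10940 and 8863 CPM in the dark, 3355, 3698 and 4480 CPM at the low dose and 1891, 1788 and 1884 CPM at the high dose. In xpf-3 and WT no UV-B library reached the level of any dark library of its genotype, and this was so in uvr8-6 too. The low dose left 16.8% of the dark level in xpf-3, 67.3% in uvr8-6 and 41.8% in WT, and the high dose left 18.6%, 37.1% and 20.2% in the same order of genotypes. The xpf-3 sum was therefore about as low after the low dose as after the high dose, and the WT and uvr8-6 sums fell with each step. Markers of the root endodermis fell too. The sum of 5 Casparian strip genes was at 6.94% of the dark level at the low dose and 7.0% at the high dose in xpf-3. It was at 53.1% and 4.74% in uvr8-6, and at 12.3% and 4.66% in WT. All 5 of these genes fell in every comparison of UV-B with dark except the uvr8-6 low dose, where 1 of 5 did. Of all genes, 33.9% and 35.5% fell at the low and high dose in xpf-3, 2.88% and 25.4% in uvr8-6, and 12.7% and 31.5% in WT. Other marker lists differed. The 6 root hair genes summed to 34.6% and 34.5% of the dark level at the low and high dose in xpf-3. They summed to 84.3% and 16.9% in uvr8-6, and to 71.2% and 32.6% in WT. At the high dose the median log2 fold change of shoot apex markers was 3.08 in xpf-3, 0.61 in uvr8-6 and 0.62 in WT. That of etiolated tissue markers was 3.09, 1.22 and 0.83. The part of the Casparian strip genes or of these other tissues in the family's decrease was not tested.

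A few members made up most of this RNA. Per kilobase of exon, which allows levels of different genes to be compared, XTH4 held 40.4% of the family's level in xpf-3 dark, 31.8% in uvr8-6 dark and 39.6% in WT dark. In WT dark XTH4 averaged 2554 ± 531 CPM per kb (SD, n = 3), followed by XTH17 with 1173 ± 196, XTH19 with 943 ± 181, XTH30 with 399 ± 61.8, XTH18 with 347 ± 131, XTH8 with 281 ± 48.6, XTH15 with 220.4 ± 31.7 and XTH31 with 110.1 ± 17.3 CPM per kb. The ranges of neighbours in this order overlapped between XTH17 and XTH19, between XTH30 and XTH18, between XTH18 and XTH8, and between XTH8 and XTH15. After the high dose the order changed: in uvr8-6, XTH19 came first with 285 ± 41.8 CPM per kb, ahead of XTH4 with 248 ± 29.9 and XTH16 with 233 ± 36.4, and these 3 ranges overlapped. In xpf-3 at the high dose XTH4 still led with 417.5 ± 191, ahead of XTH15 with 227 ± 65.7 and XTH9 with 121 ± 40.1 CPM per kb. The ranges of XTH4 and XTH15 overlapped there. In WT at the high dose XTH4 led with 456 ± 19.9, ahead of XTH15 with 136 ± 10.97 and XTH19 with 119 ± 14.3 CPM per kb. The ranges of XTH15 and XTH19 overlapped there.

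Each UV-B dose was set against the dark of the same genotype with the edgeR quasi-likelihood test, and a member was called when its Benjamini-Hochberg adjusted p over all 19794 genes was below 0.05. The 2 dose comparisons of a genotype share their dark libraries. In xpf-3, 5 of the 26 tested members rose and 13 fell at the low dose (33.4% and 33.9% of all genes, 67.3% in all), and 8 rose and 12 fell at the high dose (37.8% and 35.5%, 73.3% in all). In uvr8-6, 2 rose and 4 fell at the low dose (2.63% and 2.88% of all genes, 5.51% in all), and 5 rose and 16 fell at the high dose (32.2% and 25.4%, 57.7% in all). In WT, 2 rose and 12 fell at the low dose (12.9% and 12.7% of all genes, 25.6% in all), and 5 rose and 12 fell at the high dose (33% and 31.5%, 64.5% in all). The median log2 fold change of the tested members was -0.79 and -1.01 in xpf-3 at the low and high dose, -0.20 and -0.76 in uvr8-6, and -0.46 and -1.15 in WT, beside medians over all genes between -0.01 and 0.09. XTH4, XTH5, XTH17 and XTH33 fell in all 6 comparisons, and XTH8, XTH18, XTH19, XTH23, XTH24, XTH27 and XTH30 in 5 of them. XTH7 and XTH28 rose in all 6. No member rose in 1 of these comparisons and fell in another, and XTH11 and XTH31 passed in none. How many of all genes were called alike over the 6 comparisons was not counted, so these counts have no share over all genes beside them. The heat map of log2 fold changes gives every tested member.

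**Figure D1:**
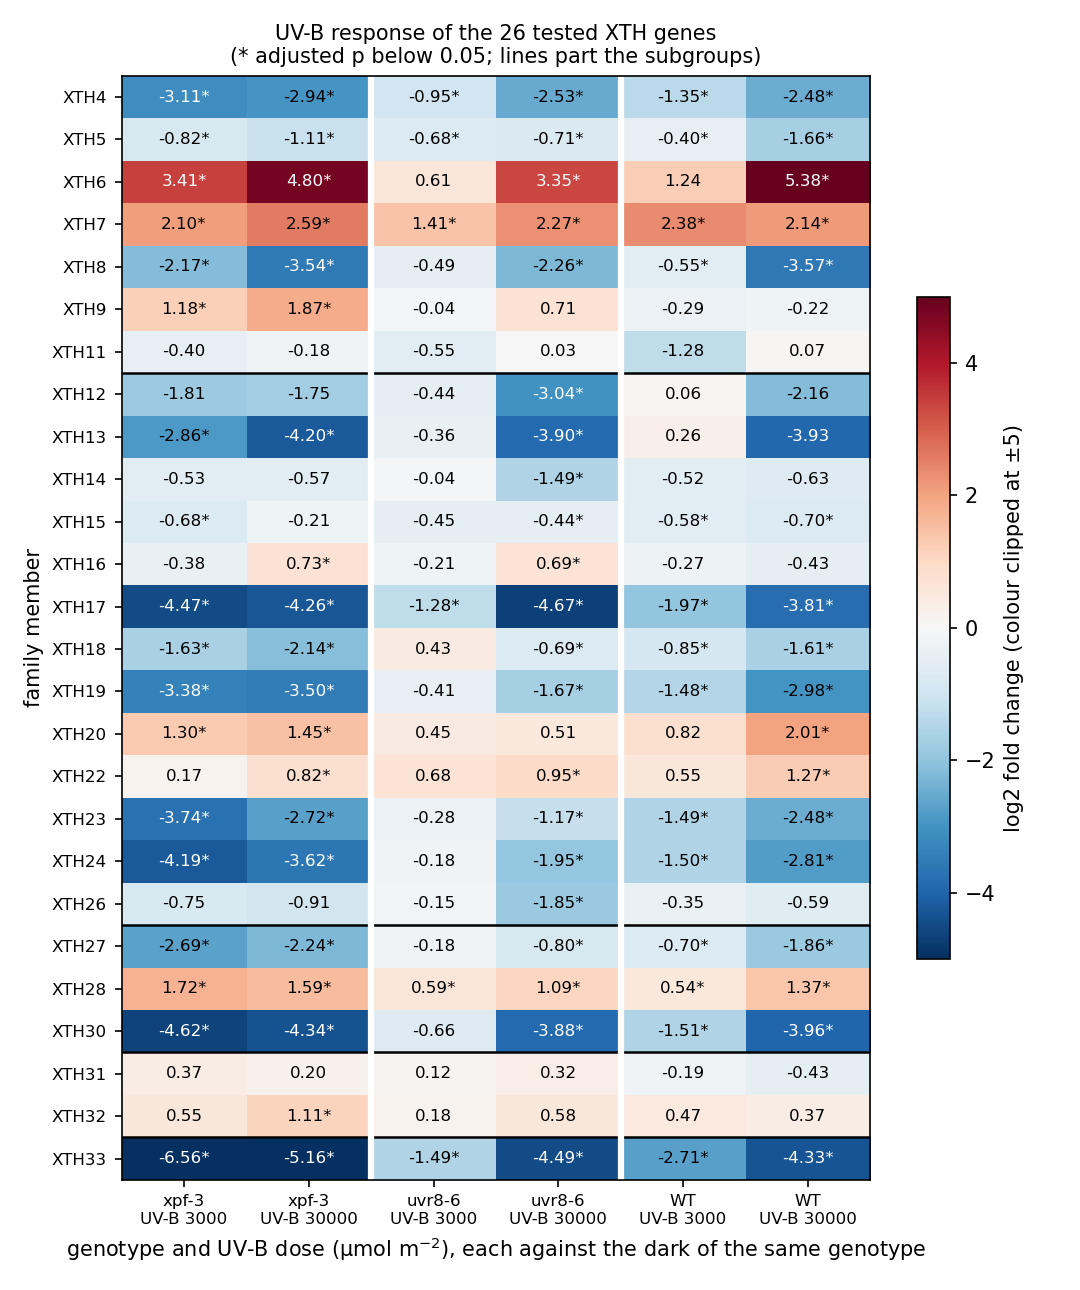
Log2 fold change of each of the 26 tested XTH genes after the low (3000 µmol m-2) and high (30000 µmol m-2) UV-B dose against the dark of the same genotype, in xpf-3, uvr8-6 and WT, with 3 libraries per group. Asterisks mark an adjusted p below 0.05; XTH33 reached -6.56 in xpf-3 at the low dose, XTH7 and XTH28 were positive in every column, and the uvr8-6 low-dose column holds the fewest asterisks, 6.

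XTH33 had the largest decrease of any tested member. It is the member set apart by sequence, and its protein is known to stay bound to the membrane. In xpf-3, XTH33 stood at 56.8, 61.5 and 89.2 CPM in the dark, 1.06, 0.6098 and 0.493 CPM at the low dose and 2.37, 1.97 and 1.58 CPM at the high dose. In uvr8-6 the values were 44.9, 45.2 and 56.1 CPM in the dark, 19.1, 16.5 and 16.3 CPM at the low dose and 1.201, 3.46 and 1.92 CPM at the high dose. WT libraries had 41.5, 51.99 and 40.8 CPM in the dark, 8.69, 6.17 and 5.92 CPM at the low dose and 1.42, 2.58 and 2.66 CPM at the high dose. Dark and UV-B libraries did not overlap in any genotype, and in xpf-3 all low-dose libraries lay below all high-dose libraries. Its log2 fold change was -6.56 ± 0.32 (adjusted p = 3.1e-13) at the low dose and -5.16 ± 0.29 (adjusted p = 1.4e-12) at the high dose in xpf-3. The changes were -1.49 ± 0.21 (adjusted p = 6.3e-05) and -4.49 ± 0.26 (adjusted p = 8.2e-12) in uvr8-6, and -2.71 ± 0.23 (adjusted p = 1.3e-08) and -4.33 ± 0.28 (adjusted p = 1.1e-11) in WT (SE; adjusted p of the edgeR quasi-likelihood test here and below). From the low to the high dose XTH33 rose by 1.40 ± 0.48 (adjusted p = 0.0436) in xpf-3, but it fell by that step in uvr8-6 (-2.99 ± 0.26, adjusted p = 8.4e-09) and in WT (-1.62 ± 0.31, adjusted p = 1.8e-04). The rise in xpf-3 was lost in 10 of 27 fits that each left out 1 library, including those without low-dose replicate 2 or 3 or any 1 of the high-dose replicates (adjusted p 0.0531 to 0.143), and the XTH33 calls against the dark held in all of them. That rise also did not pass with DESeq2 size factors (adjusted p = 0.0508) or without the low-count filter (adjusted p = 0.0649). With the replicate number as a block, common to all or within each genotype, it did not pass either (adjusted p 0.0529 and 0.0756).

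XTH4, the most abundant member and a group I gene also known from wood formation, fell as well. XTH4 in xpf-3 had 4716, 5505 and 5289 CPM in the dark, 538, 727 and 536 CPM at the low dose and 439, 1024 and 559.9 CPM at the high dose. For uvr8-6 it had 2291, 1722 and 2928 CPM in the dark, 1454, 910.0 and 1232 CPM at the low dose and 429.5, 428 and 345 CPM at the high dose. In WT it had 3328, 5032 and 4012 CPM in the dark, 1190, 1466 and 2190 CPM at the low dose and 767, 703 and 742 CPM at the high dose. Dark libraries lay above all UV-B libraries in each genotype, and low and high dose overlapped in xpf-3 only. The log2 fold change was -3.11 ± 0.28 (adjusted p = 3.5e-09) and -2.94 ± 0.28 (adjusted p = 4.8e-09) at the low and high dose in xpf-3, -0.95 ± 0.26 (adjusted p = 0.0337) and -2.53 ± 0.28 (adjusted p = 1.0e-07) in uvr8-6, and -1.35 ± 0.27 (adjusted p = 6.1e-04) and -2.48 ± 0.28 (adjusted p = 5.8e-08) in WT. The uvr8-6 low-dose call was lost without dark replicate 1 or 3 or low-dose replicate 2 or 3 (adjusted p 0.0765 to 0.232).

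XTH8 and XTH5 are further group I genes, and both fell. XTH8 in xpf-3 stood at 432, 440.5 and 539 CPM in the dark, 106, 115 and 93.2 CPM at the low dose and 38.8, 41.7 and 40.5 CPM at the high dose. The uvr8-6 libraries had 262, 220.5 and 271 CPM in the dark, 194, 165 and 177 CPM at the low dose and 65.1, 45.2 and 47.3 CPM at the high dose. The WT libraries had 277, 392 and 355 CPM in the dark, 204, 226 and 269.9 CPM at the low dose and 39.4, 20.7 and 25.8 CPM at the high dose. All high-dose libraries lay below all low-dose libraries in every genotype, and low-dose WT and dark WT libraries were close but apart. XTH8 fell, by log2 changes of -2.17 ± 0.18 (adjusted p = 7.1e-10) and -3.54 ± 0.20 (adjusted p = 9.2e-13) at the low and high dose in xpf-3, and of -2.26 ± 0.18 (adjusted p = 8.8e-10) at the high dose in uvr8-6, where the low-dose change was -0.49 ± 0.17 (adjusted p = 0.106). In WT the changes were -0.55 ± 0.17 (adjusted p = 0.0223) and -3.57 ± 0.20 (adjusted p = 1.1e-12). The WT low-dose call was lost without dark replicate 2 or 3 or low-dose replicate 1 or 2 (adjusted p 0.0676 to 0.121), and the uvr8-6 low-dose value passed without WT high-dose replicate 1 (-0.51, adjusted p = 0.0372).

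XTH5 in xpf-3 had 50.03, 52.4 and 46.7 CPM in the dark, 27.1, 33.8 and 23.5 CPM at the low dose and 21.8, 21.9 and 25.1 CPM at the high dose. In uvr8-6, XTH5 had 53.2, 55.7 and 57.95 CPM in the dark, 38.5, 30.5 and 34.9 CPM at the low dose and 40.3, 33.6 and 28.1 CPM at the high dose. Among WT libraries it had 45.3, 62.5 and 61.4 CPM in the dark, 41.4, 44.8 and 41.5 CPM at the low dose and 20.1, 18.1 and 15.5 CPM at the high dose. It was thus one of the milder members, and in uvr8-6 both doses gave about the same level. XTH5 changed by -0.82 ± 0.14 (adjusted p = 2.6e-05) and -1.11 ± 0.15 (adjusted p = 5.2e-07) in xpf-3, -0.68 ± 0.14 (adjusted p = 0.00349) and -0.71 ± 0.14 (adjusted p = 1.5e-04) in uvr8-6 and -0.40 ± 0.14 (adjusted p = 0.0362) and -1.66 ± 0.15 (adjusted p = 1.7e-09) in WT, at the low and high dose. The WT low-dose call was lost in 6 fits without 1 library each, 5 of them without WT dark replicate 2 or 3 or any 1 of the low-dose replicates (adjusted p 0.0527 to 0.159).

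XTH17, XTH18 and XTH19 are closely related group II genes, which with XTH20 are known mainly from roots and hypocotyls, and XTH19 also from the rejoining of cut stems. XTH17 in xpf-3 had 1745, 1732 and 1985 CPM in the dark, 73.3, 95.6 and 78.03 CPM at the low dose and 56.1, 156 and 69.5 CPM at the high dose. XTH17 in uvr8-6 had 639.7, 451 and 989.6 CPM in the dark, 395, 157 and 306 CPM at the low dose and 28.1, 33.6 and 20.3 CPM at the high dose. XTH17 in WT had 1209, 1697 and 1470 CPM in the dark, 327, 362 and 429.5 CPM at the low dose and 113, 97.4 and 102 CPM at the high dose. UV-B libraries lay below all dark libraries in each genotype, and the high-dose uvr8-6 libraries were the lowest of all 27. XTH17 fell, by log2 changes of -4.47 ± 0.38 (adjusted p = 1.8e-09) and -4.26 ± 0.37 (adjusted p = 2.0e-09) at the low and high dose in xpf-3, -1.28 ± 0.33 (adjusted p = 0.0231) and -4.67 ± 0.38 (adjusted p = 2.4e-09) in uvr8-6, and -1.97 ± 0.34 (adjusted p = 1.7e-04) and -3.81 ± 0.36 (adjusted p = 9.2e-09) in WT. The uvr8-6 low-dose call was lost without dark replicate 3 or low-dose replicate 2 or 3 (adjusted p 0.0575 to 0.208).

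XTH19 in xpf-3 had 1354, 1282 and 1839 CPM in the dark, 156, 154 and 119 CPM at the low dose and 109, 145 and 139.6 CPM at the high dose. XTH19 in uvr8-6 had 1249, 1069 and 1318 CPM in the dark, 1040, 874 and 832 CPM at the low dose and 434, 385 and 323 CPM at the high dose. XTH19 in WT had 1023, 1507 and 1247 CPM in the dark, 459.5, 464 and 428 CPM at the low dose and 148, 182 and 149 CPM at the high dose. The uvr8-6 low-dose libraries stood close under their dark libraries, whereas WT and xpf-3 low-dose libraries were far below theirs. XTH19 fell, by log2 changes of -3.38 ± 0.18 (adjusted p = 8.1e-13) and -3.50 ± 0.18 (adjusted p = 3.3e-13) at the low and high dose in xpf-3, and of -1.48 ± 0.16 (adjusted p = 5.7e-07) and -2.98 ± 0.17 (adjusted p = 2.0e-12) in WT. In uvr8-6 the change was -0.41 ± 0.16 (adjusted p = 0.157) at the low dose, which did not pass, and -1.67 ± 0.17 (adjusted p = 1.7e-08) at the high dose.

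XTH18 in xpf-3 had 336, 412 and 414 CPM in the dark, 128, 134 and 114 CPM at the low dose and 78.3, 109 and 74.8 CPM at the high dose. XTH18 in uvr8-6 had 173, 211 and 242 CPM in the dark, 332, 273 and 241 CPM at the low dose and 102, 174 and 111 CPM at the high dose. XTH18 in WT had 346, 629 and 339 CPM in the dark, 188, 278 and 260.2 CPM at the low dose and 126, 155 and 150.4 CPM at the high dose. In uvr8-6 the low-dose libraries ran from just under the highest dark library to well above it. XTH18 changed by -1.63 ± 0.23 (adjusted p = 2.3e-06) and -2.14 ± 0.24 (adjusted p = 4.6e-08) at the low and high dose in xpf-3, 0.43 ± 0.23 (adjusted p = 0.314) and -0.69 ± 0.23 (adjusted p = 0.0122) in uvr8-6, and -0.85 ± 0.23 (adjusted p = 0.00754) and -1.61 ± 0.23 (adjusted p = 2.6e-06) in WT. The WT low-dose call was lost without dark replicate 2 (adjusted p = 0.105), and the uvr8-6 high-dose call without dark replicate 3 or high-dose replicate 1 (adjusted p 0.0629 to 0.0691).

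Values of XTH17 to XTH19 are uncertain in how reads were divided among them, since the handling of shared reads is not given in the sources used here. XTH18 and XTH19 are neighbours on chromosome 4 with 87.6% identity over the coding sequence, and XTH17 and XTH19 share 80.8%. Their longest identical run, 68 bases within the coding sequence of both, is printed because a short read inside it fits either gene (TAIR10.1, coding strand; XTH18 at chr4:14826483-14826550 and XTH19 at chr4:14829475-14829542, both on the minus strand).
XTH18 and XTH19 shared run: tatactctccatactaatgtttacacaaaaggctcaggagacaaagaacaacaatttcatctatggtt
Of 528 pairs of members, 2 had an identical run of at least 50 bases, this one and XTH17 with XTH19 (51 bases).

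**Figure D2:**
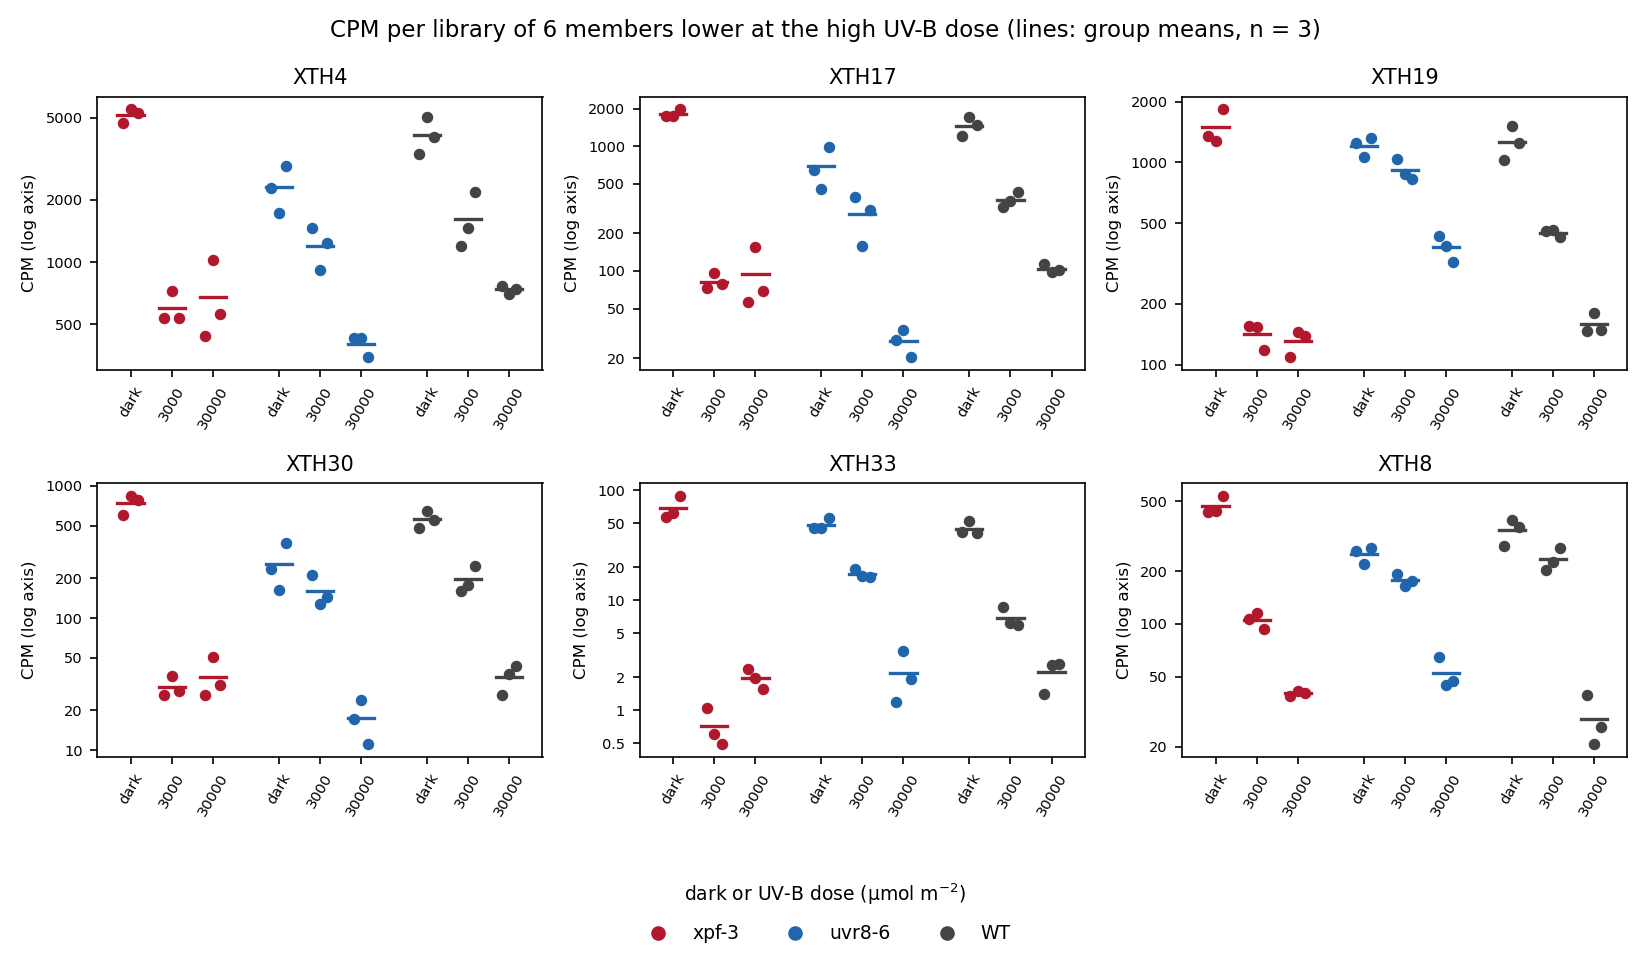
CPM (log axes) of XTH4, XTH17, XTH19, XTH30, XTH33 and XTH8 in each of the 27 libraries, by genotype and dose, with lines at the group means (n = 3). In xpf-3 the low-dose points sit near the high-dose points except for XTH8 and XTH33, and in uvr8-6 the low-dose points sit nearer the dark points.

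Group II also holds XTH23 and XTH24 (MERI5), genes long known from growing tissue. XTH23 in xpf-3 had 40.8, 55.9 and 51.6 CPM in the dark, 4.56, 3.902 and 2.66 CPM at the low dose and 5.44, 10.8 and 5.44 CPM at the high dose. XTH23 in uvr8-6 had 27.1, 31.1 and 35.03 CPM in the dark, 22.9, 31.1 and 22.7 CPM at the low dose and 11.8, 20.8 and 9.22 CPM at the high dose. XTH23 in WT had 32.8, 35.96 and 35.1 CPM in the dark, 18.7, 7.14 and 11.8 CPM at the low dose and 5.796, 4.69 and 7.86 CPM at the high dose. Low-dose and dark libraries overlapped in uvr8-6 but were apart in both other genotypes. XTH23 fell, by log2 changes of -3.74 ± 0.34 (adjusted p = 4.9e-09) and -2.72 ± 0.33 (adjusted p = 1.6e-07) at the low and high dose in xpf-3 and of -1.49 ± 0.30 (adjusted p = 7.7e-04) and -2.48 ± 0.33 (adjusted p = 8.8e-07) in WT. In uvr8-6 it changed by -0.28 ± 0.28 (adjusted p = 0.653) and -1.17 ± 0.29 (adjusted p = 0.00158).

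XTH24 in xpf-3 had 85.4, 295 and 163 CPM in the dark, 8.06, 13.7 and 8.38 CPM at the low dose and 12.3, 21.9 and 9.31 CPM at the high dose. XTH24 in uvr8-6 had 38.4, 28.6 and 54.4 CPM in the dark, 44.4, 31.4 and 31.4 CPM at the low dose and 6.99, 15.5 and 9.16 CPM at the high dose. XTH24 in WT had 90.5, 125 and 102 CPM in the dark, 22.1, 38.5 and 50.8 CPM at the low dose and 9.402, 16.3 and 19.3 CPM at the high dose. The xpf-3 dark libraries were widely spread, yet the lowest of them was above every UV-B library of that genotype. XTH24 fell, by log2 changes of -4.19 ± 0.46 (adjusted p = 1.3e-07) and -3.62 ± 0.45 (adjusted p = 4.9e-07) at the low and high dose in xpf-3 and of -1.50 ± 0.40 (adjusted p = 0.00897) and -2.81 ± 0.44 (adjusted p = 1.2e-05) in WT. The uvr8-6 changes were -0.18 ± 0.40 (adjusted p = 0.864) and -1.95 ± 0.43 (adjusted p = 6.6e-04).

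XTH15 (XTR7), a gene known for its part in shade-induced elongation, changed little. Its lowest, median and highest values over the 27 libraries were 150.1, 228 and 381 CPM. It fell at the low dose in xpf-3 (-0.68 ± 0.17, adjusted p = 0.00150) and WT (-0.58 ± 0.17, adjusted p = 0.0164) and at the high dose in uvr8-6 (-0.44 ± 0.17, adjusted p = 0.0319) and WT (-0.70 ± 0.18, adjusted p = 0.00137). With the replicate number as a block within each genotype, the uvr8-6 low-dose change of -0.45 passed as well (adjusted p = 0.0337, against 0.145 without the block). The WT low-dose call was lost without dark replicate 2 or low-dose replicate 1 or 3 (adjusted p 0.0629 to 0.103), and the uvr8-6 high-dose call without dark replicate 1 or 2 or high-dose replicate 1 or 2 (adjusted p 0.0760 to 0.104). A high-dose call appeared in xpf-3 without high-dose replicate 2 (-0.45, adjusted p = 0.0227). XTH15 overlaps 1 annotated gene on the other strand, and the strand setting of the counting is not given in the sources used here.

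Group IIIB split into opposite directions. XTH30, a transglucosylase gene known from salt tolerance, fell. XTH30 in xpf-3 had 599, 842 and 781 CPM in the dark, 25.98, 36.5 and 27.9 CPM at the low dose and 26.3, 50.9 and 31.1 CPM at the high dose. XTH30 in uvr8-6 had 234, 164 and 368 CPM in the dark, 212, 128 and 144 CPM at the low dose and 17.3, 24.02 and 11.1 CPM at the high dose. XTH30 in WT had 477, 649 and 549 CPM in the dark, 161, 179 and 248 CPM at the low dose and 26.1, 37.8 and 43.4 CPM at the high dose. Dark and low-dose libraries overlapped in uvr8-6 and in no other genotype. XTH30 fell, by log2 changes of -4.62 ± 0.35 (adjusted p = 3.5e-10) and -4.34 ± 0.34 (adjusted p = 4.7e-10) at the low and high dose in xpf-3 and of -1.51 ± 0.30 (adjusted p = 7.7e-04) and -3.96 ± 0.34 (adjusted p = 1.6e-09) in WT. In uvr8-6 the changes were -0.66 ± 0.30 (adjusted p = 0.223) and -3.88 ± 0.34 (adjusted p = 5.7e-09).

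XTH27, known from the water-conducting cells of leaf veins, had in xpf-3 68, 83.3 and 91.3 CPM in the dark, 12.9, 10.6 and 14.01 CPM at the low dose and 16.1, 17.1 and 18.1 CPM at the high dose. XTH27 in uvr8-6 had 46.7, 45.6 and 65.1 CPM in the dark, 49.3, 46.3 and 43.7 CPM at the low dose and 25.4, 38.9 and 26.4 CPM at the high dose. XTH27 in WT had 65.1, 76.7 and 62.5 CPM in the dark, 38.3, 38.8 and 48.6 CPM at the low dose and 15.1, 17.9 and 23 CPM at the high dose. The low-dose xpf-3 libraries lay below all high-dose WT libraries, and dark and low-dose libraries overlapped in uvr8-6. XTH27 fell, by log2 changes of -2.69 ± 0.19 (adjusted p = 4.0e-11) and -2.24 ± 0.19 (adjusted p = 3.5e-10) at the low and high dose in xpf-3 and of -0.70 ± 0.17 (adjusted p = 0.00360) and -1.86 ± 0.18 (adjusted p = 5.2e-09) in WT, and it changed by -0.18 ± 0.17 (adjusted p = 0.637) and -0.80 ± 0.17 (adjusted p = 3.5e-04) in uvr8-6.

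XTH28, known from stamen filament growth and the nearest relative of XTH27 (77.7% coding identity), had in xpf-3 29.9, 30.1 and 27.8 CPM in the dark, 92.1, 88.2 and 108 CPM at the low dose and 86.2, 84.8 and 93.7 CPM at the high dose. XTH28 in uvr8-6 had 44.2, 46.6 and 44.2 CPM in the dark, 67.9, 72.95 and 62.3 CPM at the low dose and 86.8, 108 and 92.2 CPM at the high dose. XTH28 in WT had 31.9, 27.2 and 27.1 CPM in the dark, 38.3, 42.1 and 44.6 CPM at the low dose and 69.7, 84.3 and 70.3 CPM at the high dose. Every UV-B library lay above every dark library of its genotype, with a clear step between low and high dose in uvr8-6 and WT. XTH28 rose by 1.72 ± 0.11 (adjusted p = 9.0e-12) and 1.59 ± 0.11 (adjusted p = 1.5e-11) at the low and high dose in xpf-3, 0.59 ± 0.10 (adjusted p = 7.9e-04) and 1.09 ± 0.10 (adjusted p = 8.0e-09) in uvr8-6, and 0.54 ± 0.11 (adjusted p = 6.6e-04) and 1.37 ± 0.11 (adjusted p = 1.6e-10) in WT. All 6 calls held in each fit that left out 1 library.

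Among group I genes, XTH7 and its nearest relative XTH6 (72.3% coding identity) rose. XTH7 in xpf-3 had 2.03, 5.57 and 2.13 CPM in the dark, 15.2, 13.1 and 13.7 CPM at the low dose and 10.7, 32.9 and 14.04 CPM at the high dose. XTH7 in uvr8-6 had 5.24, 7.62 and 2.897 CPM in the dark, 14.03, 16.4 and 11.4 CPM at the low dose and 22.2, 28.6 and 24.97 CPM at the high dose. XTH7 in WT had 2.09, 1.64 and 1.06 CPM in the dark, 5.14, 8.47 and 11.2 CPM at the low dose and 7.599, 5.98 and 7.63 CPM at the high dose. All UV-B libraries were above all dark libraries of the same genotype. XTH7 rose by 2.10 ± 0.42 (adjusted p = 1.4e-04) and 2.59 ± 0.42 (adjusted p = 8.9e-06) at the low and high dose in xpf-3, 1.41 ± 0.37 (adjusted p = 0.0237) and 2.27 ± 0.37 (adjusted p = 2.2e-05) in uvr8-6, and 2.38 ± 0.46 (adjusted p = 5.9e-04) and 2.14 ± 0.48 (adjusted p = 5.1e-04) in WT. The uvr8-6 low-dose call was lost without dark replicate 1 or 3 or low-dose replicate 1 or 2 (adjusted p 0.0533 to 0.176). In xpf-3 the changes were 2.74 and 3.24 without dark replicate 2, and the high-dose change was 1.96 without high-dose replicate 2.

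XTH6 was nearly silent in the dark. The dark libraries of XTH6 held 1 count in all in xpf-3, 5 in uvr8-6 and 2 in WT, against 26, 53 and 71 counts at the high dose in the same order of genotypes. In CPM, XTH6 in xpf-3 had 0, 0.107 and 0 CPM in the dark, 0.636, 0.366 and 0.493 CPM at the low dose and 1.18, 1.35 and 1.43 CPM at the high dose. XTH6 in uvr8-6 had 0.123, 0.0719 and 0.129 CPM in the dark, 0.0671, 0.396 and 0.0609 CPM at the low dose and 0.636, 1.93 and 1.14 CPM at the high dose. XTH6 in WT had 0.0836, 0 and 0.0884 CPM in the dark, 0.132, 0.176 and 0.179 CPM at the low dose and 2.83, 3.07 and 3.47 CPM at the high dose. High-dose libraries exceeded all dark libraries of their genotype. The high dose gave 36.5 times the dark level in xpf-3 (95% exact counting interval 5.998 to 1497) and 48.99 times in WT (13.1 to 412), and in uvr8-6 the log2 fold change was 3.35 ± 0.55 (adjusted p = 2.1e-05). The test called XTH6 at the high dose in xpf-3 (adjusted p = 1.1e-05) and WT (adjusted p = 7.9e-08), and at the low dose in xpf-3 (adjusted p = 0.00219), where the ratio was 13.7 (2.08 to 579). At the low dose the ratio was 2.59 (0.424 to 27.2) in WT and no call was made. The fitted xpf-3 changes were 3.41 and 4.80 with all libraries and 5.49 and 6.88 without dark replicate 2, which held the only dark count. Intervals cover counting error only.

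XTH22 (TCH4), the touch-induced member whose enzyme was among the first shown to join xyloglucan chains, rose at the high dose. XTH22 in xpf-3 had 18.2, 20.1 and 14.4 CPM in the dark, 21.3, 20.4 and 17.9 CPM at the low dose and 24.1, 38.4 and 29.8 CPM at the high dose. XTH22 in uvr8-6 had 18.9, 33.9 and 23.3 CPM in the dark, 42.8, 44.9 and 33.8 CPM at the low dose and 41.3, 63.8 and 41.4 CPM at the high dose. XTH22 in WT had 13.04, 18.9 and 14.2 CPM in the dark, 16.5, 19.7 and 30.4 CPM at the low dose and 29.5, 41.2 and 39.8 CPM at the high dose. High-dose libraries lay above all dark libraries in each genotype. XTH22 rose at the high dose by 0.82 ± 0.25 (adjusted p = 0.00561) in xpf-3, 0.95 ± 0.23 (adjusted p = 0.00151) in uvr8-6 and 1.27 ± 0.25 (adjusted p = 1.2e-04) in WT. Low-dose changes were 0.17 ± 0.25 (adjusted p = 0.555) in xpf-3, 0.68 ± 0.23 (adjusted p = 0.0944) in uvr8-6 and 0.55 ± 0.25 (adjusted p = 0.114) in WT. With the replicate number as a block within each genotype, the low-dose change passed in uvr8-6 (0.71, adjusted p = 0.00992) and in WT (0.52, adjusted p = 0.0348). The uvr8-6 low-dose value also passed without dark replicate 2 (0.94, adjusted p = 0.0225).

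XTH20, known with XTH19 from the rejoining of cut stems, had in xpf-3 0.321, 0.964 and 0.827 CPM in the dark, 1.59, 2.07 and 1.58 CPM at the low dose and 1.18, 1.72 and 2.72 CPM at the high dose. XTH20 in uvr8-6 had 6.11, 4.03 and 1.996 CPM in the dark, 5.37, 6.87 and 4.39 CPM at the low dose and 6.15, 7.39 and 3.89 CPM at the high dose. XTH20 in WT had 1.25, 0.252 and 0.884 CPM in the dark, 2.24, 1.06 and 1.34 CPM at the low dose and 2.58, 4.201 and 3.58 CPM at the high dose. It was low throughout. Dark and UV-B libraries overlapped in uvr8-6, and dark and low-dose libraries overlapped in WT. XTH20 rose by 1.30 ± 0.53 (adjusted p = 0.0347) and 1.45 ± 0.55 (adjusted p = 0.0207) at the low and high dose in xpf-3 and of 2.01 ± 0.47 (adjusted p = 7.2e-04) at the high dose in WT. The xpf-3 low-dose call was lost without dark replicate 1 or 3 or low-dose replicate 2 (adjusted p 0.0508 to 0.151), and the high-dose call without dark replicate 1 or high-dose replicate 3 (adjusted p 0.0957 to 0.142). A uvr8-6 high-dose call appeared without dark replicate 1 (0.95, adjusted p = 0.0439).

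XTH9, known with XTH4 from wood formation, differed between genotypes. XTH9 in xpf-3 had 62.5, 49.7 and 39.8 CPM in the dark, 127, 118 and 100.5 CPM at the low dose and 147, 256 and 153 CPM at the high dose. XTH9 in uvr8-6 had 193, 196 and 140.0 CPM in the dark, 179, 171 and 164 CPM at the low dose and 315, 295 and 258 CPM at the high dose. XTH9 in WT had 141, 39.4 and 37.1 CPM in the dark, 89.4, 54.3 and 36.3 CPM at the low dose and 66.97, 52.03 and 68.9 CPM at the high dose. UV-B libraries lay above dark libraries in xpf-3, while WT dark replicate 1 was the highest of all WT libraries. XTH9 rose by 1.18 ± 0.38 (adjusted p = 0.0100) and 1.87 ± 0.39 (adjusted p = 2.1e-04) at the low and high dose in xpf-3. In uvr8-6 the high-dose change was 0.71 ± 0.37 (adjusted p = 0.104), which passed with the replicate number as a block within each genotype (0.72, adjusted p = 0.0290) and without WT dark replicate 1 (0.71, adjusted p = 0.0145). The WT high-dose change was -0.22 ± 0.38 (adjusted p = 0.636), and without dark replicate 1 it was 0.71 (adjusted p = 0.0347). That library also had the highest sum of WT dark shoot apex markers (11.3 CPM against 3.79 and 3.98) and of etiolated tissue markers (446 CPM against 137 and 88.8), and the part of these tissues in the result was not tested.

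XTH16 and XTH32 rose in some comparisons only. XTH16, the nearest relative of XTH15, had in xpf-3 83.1, 64.9 and 74.7 CPM in the dark, 64.5, 57.1 and 49.5 CPM at the low dose and 84.7, 181 and 103 CPM at the high dose. XTH16 in uvr8-6 had 197, 190.3 and 139 CPM in the dark, 145, 168 and 143 CPM at the low dose and 295, 321 and 235 CPM at the high dose. XTH16 in WT had 96.3, 47.7 and 50.9 CPM in the dark, 64.4, 35.9 and 62.6 CPM at the low dose and 45.7, 38.6 and 59.9 CPM at the high dose. The high-dose uvr8-6 libraries were the highest of all, and dark and UV-B libraries of WT overlapped. XTH16 rose at the high dose in xpf-3 (0.73 ± 0.28, adjusted p = 0.0215) and uvr8-6 (0.69 ± 0.27, adjusted p = 0.0330). The xpf-3 call was lost without dark replicate 2 or 3 or high-dose replicate 2 (adjusted p 0.0591 to 0.246), and the uvr8-6 call in 10 of 27 fits without 1 library, among them those without dark replicate 3 or high-dose replicate 1 or 2 (adjusted p 0.0538 to 0.139). Of 5 shoot apex and stomatal lineage markers (STM, CLV3, WUS, SPCH and TMM) 4 were tested over the same contrasts. Their median log2 fold change was 3.08 in xpf-3, with all 4 higher (37.8% of all genes were). In uvr8-6 it was 0.61, with 2 higher (32.2% of all genes were). XTH16 was not called in WT at the high dose, where the markers' median was 0.62, with 1 higher (33% of all genes were). Nor was it called in xpf-3 at the low dose, where their median was 2.05, with all 4 higher (33.4% of all genes were). The summed level of these markers in xpf-3 was 13.97 to 17.6 CPM at the high dose and 1.77 to 3.21 CPM in the dark. Etiolated tissue markers summed to 909.6 to 1289 CPM at the high dose and 81.1 to 121 CPM in the dark in xpf-3. The part of such cells in the XTH7, XTH9, XTH16 and XTH32 values was not tested.

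XTH32, a group IIIA gene, had in xpf-3 28.4, 16.9 and 12.9 CPM in the dark, 34.4, 24.02 and 27.03 CPM at the low dose and 38.4, 39.99 and 47.7 CPM at the high dose. XTH32 in uvr8-6 had 26.3, 39.4 and 19.4 CPM in the dark, 21.5, 49.9 and 24.9 CPM at the low dose and 41.7, 49.2 and 36.6 CPM at the high dose. XTH32 in WT had 38.3, 15.02 and 11.8 CPM in the dark, 43.98, 20.6 and 27.6 CPM at the low dose and 37.7, 25.04 and 22.2 CPM at the high dose. Groups overlapped in uvr8-6 and WT, and dark and low-dose libraries overlapped in xpf-3 as well. XTH32 rose at the high dose in xpf-3 (1.11 ± 0.42, adjusted p = 0.0213), a call lost without dark replicate 2 or 3 or high-dose replicate 3 (adjusted p 0.0647 to 0.101). In uvr8-6 the high-dose change of 0.58 (adjusted p = 0.208) passed with the replicate number as a block within each genotype (0.64, adjusted p = 0.0202). Without WT dark replicate 1, which was the highest WT dark library, the WT changes passed at the low dose (1.19, adjusted p = 0.0324) and the high dose (1.09, adjusted p = 0.0283). XTH31, the other group IIIA gene and one whose enzyme is known to act mainly as a hydrolase, had 67.7, 136 and 181 CPM as its lowest, median and highest values, and it passed in no comparison with all libraries in the fit. Without WT high-dose replicate 1, XTH31 was lower in WT at the high dose (-0.86, adjusted p = 0.00334).

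**Figure D3:**
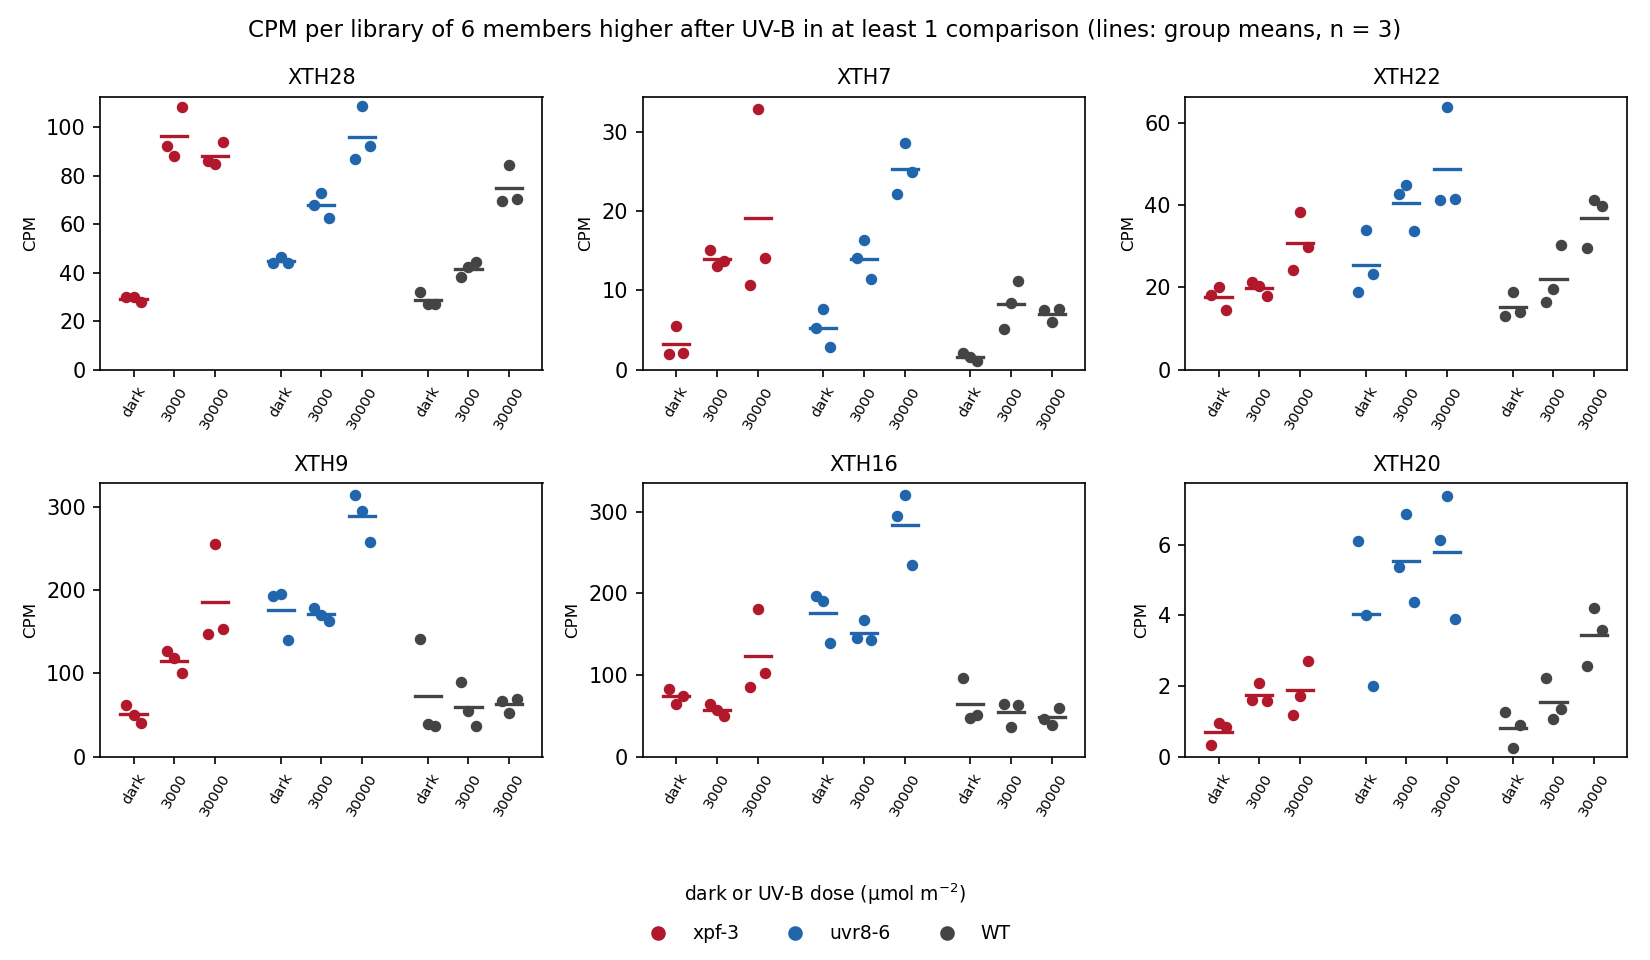
CPM (axes from 0) of XTH28, XTH7, XTH22, XTH9, XTH16 and XTH20 in each of the 27 libraries, by genotype and dose, with lines at the group means (n = 3). XTH28 and XTH7 show UV-B points above the dark points in every genotype, and for XTH9 WT dark replicate 1 stands at 141 CPM, above every other WT point.

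XTH12, XTH13, XTH14 and XTH26 are group II genes known from roots and root hairs, and some of their groups held 1 library far above the others. Their summed level was 48.1, 57.01 and 304 CPM in xpf-3 dark, 195.5, 345 and 169.8 CPM in uvr8-6 dark and 103, 48.96 and 69.5 CPM in WT dark. The sum of 6 root hair markers (EXPA7, EXPA18, COBL9, PRP3, ADF8 and COW1) was 73.2, 96.4 and 389.5 CPM, 290.2, 455.5 and 303 CPM, and 147, 90.3 and 97.6 CPM in the same libraries. The third xpf-3 dark library was thus far above the other xpf-3 dark libraries in both sums, and uvr8-6 dark replicate 2 was the highest dark library in both. At the high dose the members' sum was 80.7, 71.5 and 65.6 CPM in xpf-3, 63.02, 69.8 and 34.9 CPM in uvr8-6, and 22.2, 58.8 and 43.2 CPM in WT.

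In uvr8-6 at the high dose all 4 of these genes fell, with log2 fold changes of -3.04 ± 0.91 (adjusted p = 0.00739) for XTH12, -3.90 ± 1.03 (adjusted p = 0.00315) for XTH13, -1.49 ± 0.56 (adjusted p = 0.0291) for XTH14 and -1.85 ± 0.70 (adjusted p = 0.0301) for XTH26. All 6 root hair markers fell as well in that comparison (25.4% of all genes did), with a median of -2.62. The summed level of these markers was 39.5 to 69.7 CPM at the high dose and 290.2 to 455.5 CPM in the dark. At the high dose 5 of 6 markers fell in xpf-3 (35.5% of all genes did, median -1.74) and 4 of 6 in WT (31.5%, median -1.72). Of the 4 members only XTH13 in xpf-3 was called in those 2 comparisons. The part of root hair cells in the result was not tested. In uvr8-6 the XTH14 call was lost without dark replicate 2 or high-dose replicate 2 or 3 (adjusted p 0.0508 to 0.10). The uvr8-6 XTH26 call was lost without dark replicate 2 or high-dose replicate 1 or 3 (adjusted p 0.0589 to 0.123). XTH13 in uvr8-6 stood at -5.05 without high-dose replicate 2. In xpf-3 XTH13 was called lower at the low dose (-2.86 ± 1.19, adjusted p = 0.0391) and high dose (-4.20 ± 1.52, adjusted p = 0.0178), but these calls rested on the third dark library, which held 34.9 CPM beside 0.321 and 0.536 CPM in the other two. Without it the changes were 1.91 and 0.51 with adjusted p-values of 0.242 and 0.809. Without high-dose replicate 2 or 3 the XTH13 high-dose change was -3.40 (adjusted p = 0.0672) or -5.10, without dark replicate 1 the low-dose change was -3.45, and the low-dose call was also lost without any 1 of its low-dose replicates (adjusted p 0.0535 to 0.116). XTH12 in xpf-3, with 75.04 CPM in the third dark library beside 4.06 and 3.86 CPM, changed by -1.81 ± 0.95 (adjusted p = 0.0966) and -1.75 ± 0.98 (adjusted p = 0.115) at the low and high dose and passed at both doses without dark replicate 1 or 2 (adjusted p 0.0288 to 0.0400). Its negative direction rested on the third dark library, since the other dark values lay below the UV-B means of 7.89 CPM (low dose) and 8.32 CPM (high dose). XTH12 and XTH13 share 89.4% of their coding bases and a run of 47 identical bases, so reads of one may have been counted for the other. In WT none of the 4 passed at either dose in the edgeR fit of all 9 groups with all libraries. At the high dose XTH13 passed with DESeq2 (-3.93, adjusted p = 0.00819), and XTH12 and XTH13 passed with the compared groups fitted alone (-2.10 and -3.88, adjusted p 0.0124 and 5.6e-04). Without the third xpf-3 dark library, which enters the shared estimate of spread, XTH12 and XTH13 passed in WT at the high dose (-2.17 and -3.94, adjusted p 0.0312 and 0.00742). XTH13 passed there also without either other xpf-3 dark library (adjusted p 0.0437 to 0.0454), and XTH14 passed at the low dose without WT low-dose replicate 1 (-1.66, adjusted p = 0.0331). WT low-dose replicate 1 was high in their sum (130.5 CPM, against 33.3 and 17.9).

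**Figure D4:**
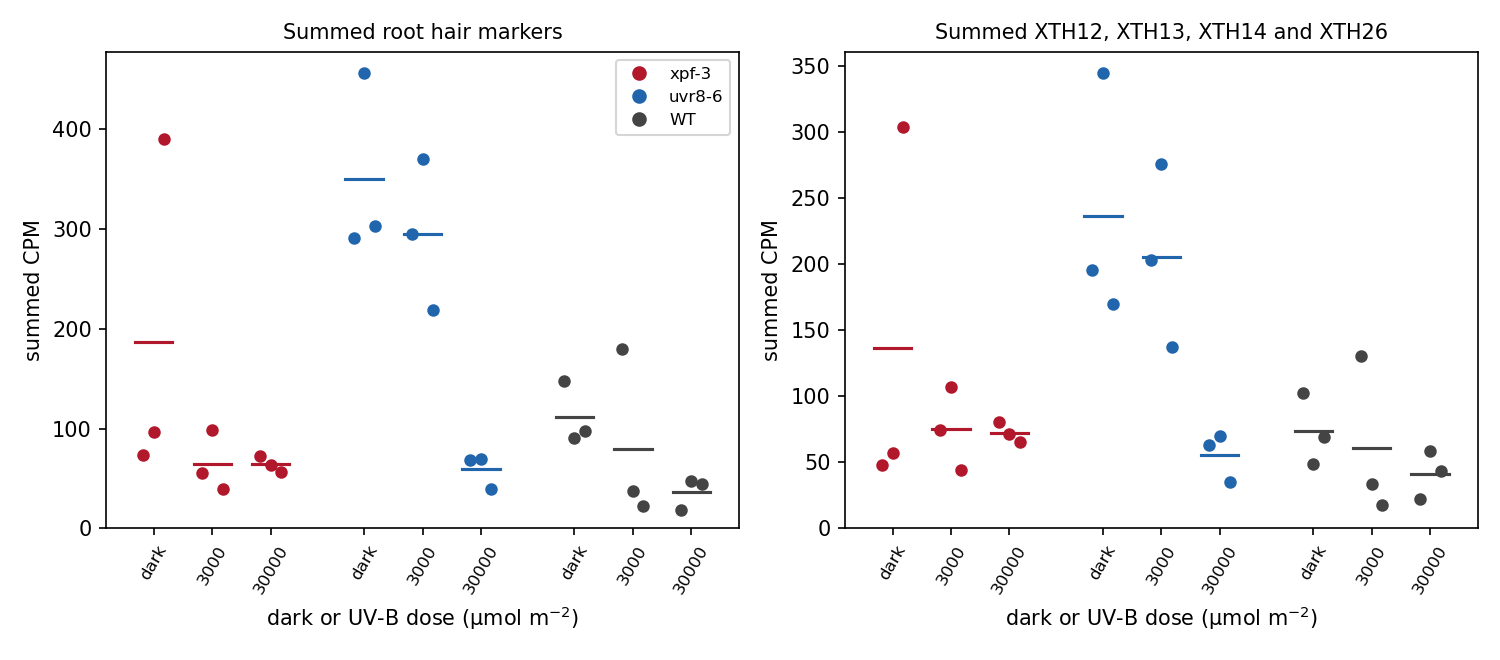
Summed CPM of 6 root hair markers (left) and of XTH12, XTH13, XTH14 and XTH26 (right) in each of the 27 libraries, by genotype and dose, with lines at the group means (n = 3). The libraries that are high in one panel are high in the other, among them the third xpf-3 dark library with 389.5 CPM of markers and 304 CPM of family members.

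The 7 members left out of the test were XTH1, XTH2, XTH3, XTH10, XTH21, XTH25 and XTH29, all under the count filter. XTH1 and XTH2, which are neighbours on chromosome 4, had 0 counts in all 27 libraries, and XTH3, whose enzyme is known to act on cellulose too, had 2 counts in all. XTH29, the group IIIB gene closest to XTH30, was seen mainly after the high dose. XTH29 had 0 counts in the dark, 1 at the low dose and 15 at the high dose in xpf-3, and 0, 1 and 31 counts in WT. The high dose was therefore at least 7.02-fold higher than the dark in xpf-3 and at least 14.3-fold higher in WT, with the floor set at 3 counts over the dark group. In uvr8-6 it had 1 count in the dark, 1 at the low dose and 22 at the high dose, a ratio of 22.9 to the dark (95% exact counting interval 3.70 to 945). XTH21 had 22 counts in uvr8-6 dark and 0 at the high dose, at least 7.04-fold lower.

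Genotypes were next compared in the dark. No member differed between xpf-3 dark and WT dark by the edgeR quasi-likelihood test (0.167% of all genes did, 0.106% higher and 0.0606% lower), nor by DESeq2, with a median log2 fold change of 0.25 beside 0.04 for all genes. The 2 members with an unadjusted p below 0.05 were XTH8 and XTH33. Between uvr8-6 dark and WT dark 8 members were higher and 5 lower, among 14.2% and 17.2% of all genes (31.4% in all), and sequencing run cannot be told apart from genotype here. Higher in uvr8-6 were XTH28 (0.64 ± 0.11, adjusted p = 2.1e-04), XTH16 (1.43 ± 0.28, adjusted p = 8.6e-04) and XTH20 (2.25 ± 0.44, adjusted p = 8.7e-04), which held in all fits without 1 library, and XTH7, XTH9, XTH12, XTH13 and XTH22, with changes of 1.70, 1.27, 2.61, 3.08 and 0.73. Lower in uvr8-6 were XTH18 (-1.07 ± 0.23, adjusted p = 0.00161) and XTH4, XTH17, XTH24 and XTH30, with changes of -0.83, -1.07, -1.38 and -1.13. Apart from XTH28, XTH16, XTH20 and XTH18, each of these calls was lost in at least 1 such fit (adjusted p 0.0514 to 0.192): XTH30 without uvr8-6 dark replicate 2 alone, XTH7 without WT dark replicate 3 or uvr8-6 dark replicate 2, XTH24 without WT dark replicate 2 or uvr8-6 dark replicate 2, and the others without 3 or 4 libraries, which were uvr8-6 dark replicates 1 and 2 and WT dark replicates 1, 2 and 3. XTH9 stood at 2.20 without WT dark replicate 1. Without 1 library, calls also appeared for XTH8 (-0.57 to -0.44) and XTH26 (1.68 to 2.37) in several fits, for XTH32 (1.08) without WT dark replicate 1 and for XTH27 (-0.56) without uvr8-6 dark replicate 3. In the same comparison 3 of 6 root hair markers were higher, with a median of 1.70, and their part in the XTH12 and XTH13 values was not tested. Of the 5 Casparian strip genes 4 were lower, with a median of -1.36, of 4 shoot apex markers tested 1 was higher (median 1.30), and of 2 etiolated tissue markers 1 was higher. Their part in the lower XTH4, XTH17, XTH18, XTH24 and XTH30 values and in the higher values of other members was not tested.

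The xpf-3 and WT responses to the low dose differed for 11 of the 26 tested members, and the other 15 did not pass. Testing the difference of the responses, xpf-3 minus WT, 9 members had a more negative change in xpf-3 (17.8% of all genes did) and 2 a more positive one (11.8%, and 29.6% in either direction), with a median over members of -0.42 beside -0.05 over all genes. The largest difference was -3.86 ± 0.42 (adjusted p = 3.2e-06) for XTH33, followed by -3.11 ± 0.43 (adjusted p = 4.3e-05) for XTH30, -2.69 ± 0.59 (adjusted p = 0.00268) for XTH24, -2.50 ± 0.47 (adjusted p = 7.0e-04) for XTH17 and -2.25 ± 0.45 (adjusted p = 0.00121) for XTH23. XTH27, XTH19, XTH4 and XTH8 differed by -1.99, -1.90, -1.75 and -1.62, with adjusted p-values of 1.1e-05, 8.5e-06, 0.00170 and 8.6e-05. XTH28 rose more in xpf-3 (1.18 ± 0.15, adjusted p = 1.3e-05), and so did XTH9 (1.47 ± 0.54, adjusted p = 0.0448), whose call was lost in 15 of 27 fits without 1 library and stood at 0.54 (adjusted p = 0.342) without WT dark replicate 1. The other 10 calls held in all such fits. XTH18 (-0.78, adjusted p = 0.0701) passed without WT dark replicate 2 (-1.13, adjusted p = 0.00590) and without uvr8-6 high-dose replicate 2 (-0.78, adjusted p = 0.0467), and XTH5 (-0.42, adjusted p = 0.114) without xpf-3 low-dose replicate 2 (-0.57, adjusted p = 0.0401).

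**Figure D5:**
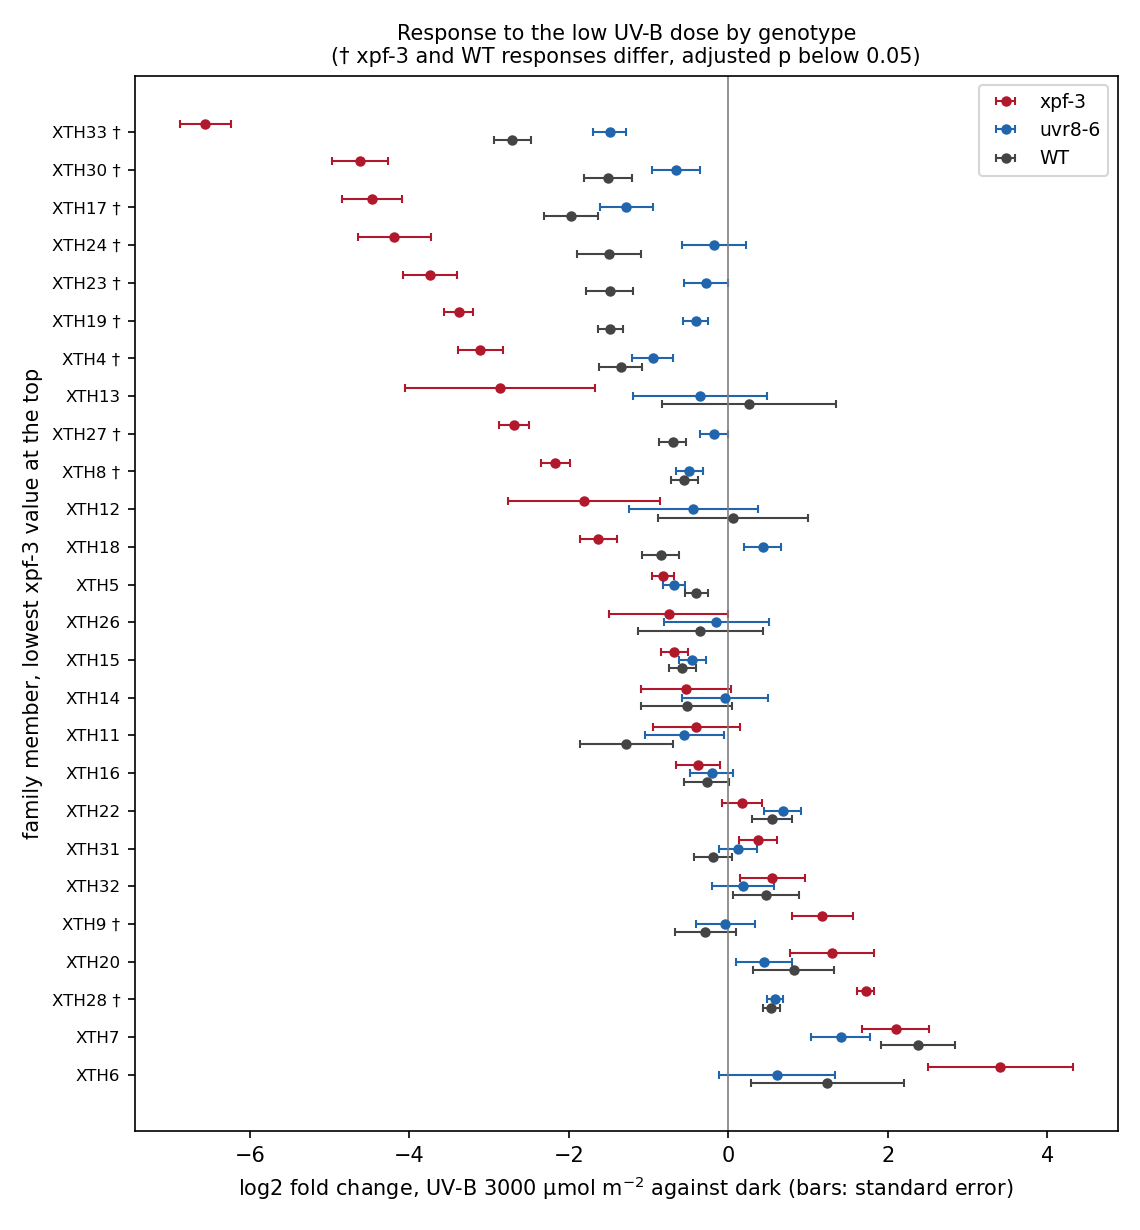
Log2 fold change of each tested member at the low UV-B dose (3000 µmol m-2) against the dark of the same genotype in xpf-3, uvr8-6 and WT, with bars for the standard error of the fit (3 libraries per group). Daggers mark the 11 members whose xpf-3 and WT responses differ at an adjusted p below 0.05, 9 of them lower in xpf-3, with XTH33 lowest at -6.56 in xpf-3, -1.49 in uvr8-6 and -2.71 in WT.

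At the high dose the xpf-3 and WT responses differed for 1 member, XTH9 (2.09 ± 0.54, adjusted p = 0.0230; by this test 5.21% of all genes were higher and 4.13% lower, 9.34% in all). This call was lost without WT dark replicate 1 (1.16, adjusted p = 0.109), WT high-dose replicate 2, xpf-3 dark replicate 3 or xpf-3 high-dose replicate 2 (adjusted p 0.0619 to 0.109). XTH16 (1.17, adjusted p = 0.0641) passed in 5 fits without 1 library, and XTH18, XTH5 and XTH31 in 1 or 2. From the low to the high dose in xpf-3, XTH33 and XTH16 rose (10.5% of all genes did) and XTH8 fell (9.0%, so that 19.5% of all genes changed). XTH16 changed by 1.12 ± 0.28 (adjusted p = 0.00815), a call lost without high-dose replicate 2 (adjusted p = 0.125), and XTH8 by -1.37 ± 0.19 (adjusted p = 2.5e-05). Calls appeared without 1 library for XTH9 (0.69, without WT dark replicate 1), XTH18 (-0.78, without xpf-3 high-dose replicate 2), XTH23 (1.02) and XTH6 (1.39). With all libraries of the compared groups, XTH18 and XTH23 also passed when those groups were fitted alone (-0.55 and 0.97, adjusted p 0.00939 and 0.0317), and XTH23 with DESeq2 (0.97, adjusted p = 0.0390).

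In WT 11 members fell from the low to the high dose (23.5% of all genes) and 4 rose (22.9%, 46.4% in all), and in uvr8-6 13 fell (18.5%) and 4 rose (22.3%, 40.8% in all). The largest WT step was -3.02 ± 0.19 (adjusted p = 5.0e-11) for XTH8 among those that fell, and the largest uvr8-6 decreases were -3.55 ± 1.02 (adjusted p = 0.00990) for XTH13, which stood at -4.69 without high-dose replicate 2, and -3.39 ± 0.36 (adjusted p = 2.7e-07) for XTH17. XTH6 rose most in both, by 2.74 ± 0.51 (adjusted p = 1.7e-04) in uvr8-6 (4.03 without low-dose replicate 2) and 4.15 ± 0.54 (adjusted p = 1.2e-06) in WT. Calls lost without 1 library were those of XTH20, XTH22, XTH23 and XTH24 in WT (adjusted p 0.0582 to 0.144, without 1 of WT low-dose replicates 1 to 3 or high-dose replicates 1 to 3) and of XTH7, XTH12, XTH14, XTH16 and XTH23 in uvr8-6 (adjusted p 0.0503 to 0.177). XTH7 was lost in 21 of 27 such fits. Calls appeared in some of them for XTH26 in uvr8-6 (-1.98 to -1.71) and for XTH11 (1.92), XTH12 (-2.23), XTH13 (-4.72 to -4.19) and XTH31 (-0.66) in WT. With the replicate number as a block within each genotype, XTH14 no longer passed in uvr8-6 (adjusted p = 0.0646) and XTH9 did (0.75, adjusted p = 0.0316).

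The uvr8-6 responses were set against WT in the same way, uvr8-6 minus WT. At the low dose 1 member differed, XTH19 (1.08 ± 0.23, adjusted p = 0.0234; by this test 0.258% of all genes were higher and 0.530% lower, 0.788% in all), and the call was lost without any 1 of 6 libraries (WT dark replicate 2 or 3, WT low-dose replicate 2 or 3, uvr8-6 dark replicate 2 or uvr8-6 low-dose replicate 1; adjusted p 0.0556 to 0.0976). XTH18 (1.29, adjusted p = 0.0614) and XTH33 (1.21, adjusted p = 0.0675) passed in 3 and 5 of 27 fits without 1 library, WT dark replicate 1 among them for both. With the replicate number as a block within each genotype, XTH18 passed (1.27, adjusted p = 0.0301), and with DESeq2 XTH18 and XTH33 both did (1.30 and 1.22, adjusted p 0.0108 and 0.0256). At the high dose 4 members fell less in uvr8-6 (4.48% of all genes were higher and 3.73% lower, 8.21% in all), which were XTH19 (1.31 ± 0.23, adjusted p = 0.00135), XTH8 (1.31 ± 0.25, adjusted p = 0.00295), XTH27 (1.06 ± 0.24, adjusted p = 0.00984) and XTH5 (0.94 ± 0.20, adjusted p = 0.00607). These calls held in all fits without 1 library, and that of XTH27 was lost with the compared groups fitted alone (1.04, adjusted p = 0.0725). In some of these fits calls appeared for XTH18 (1.06), XTH20 (-1.82), XTH23 (1.30 to 1.53) and XTH31 (1.12). The median difference over members was 0.22 at the low dose and 0.11 at the high dose, beside 0.00 and 0.03 over all genes.

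Xyloglucan itself is built in the Golgi by CSLC glucan synthases, XXT xylosyltransferases and decorating enzymes, and trimmed in the wall by exoglycosidases. Of 15 synthesis genes, 2 rose and 13 fell in xpf-3 at both the low and the high dose, 0 passed at the low dose in uvr8-6, where 1 rose and 11 fell at the high dose, and 1 rose and 2 fell at the low dose in WT, where 2 rose and 13 fell at the high dose. Of all genes, 67.3% and 73.3% were called at the low and high dose in xpf-3, 5.51% and 57.7% in uvr8-6, and 25.6% and 64.5% in WT. In uvr8-6 at the low dose 1 of the 15 had an unadjusted p below 0.05. The genes with the smallest p were AXY4 (an O-acetyltransferase), CSLC4, CSLC5 and XXT5 in both WT and xpf-3 at the high dose, with log2 fold changes of -4.12, -3.10, -2.17 and -1.46 in xpf-3 and -3.90, -2.46, -1.61 and -1.05 in WT. The 2 genes that rose in xpf-3 were AXY4L and FUT1, a fucosyltransferase, with 2.34 and 0.51 at the low dose. Of 4 trimming genes, XYL1 (a xylosidase), BGAL10 (a galactosidase) and AXY8 (a fucosidase) fell and BGLC1, a glucosidase, rose at the high dose in all 3 genotypes, BGLC1 by 1.09 in xpf-3, 0.98 in uvr8-6 and 1.33 in WT. The median synthesis gene changed by -1.09, -0.49 and -0.95 at the high dose in xpf-3, uvr8-6 and WT, each beside an all-gene median between 0.03 and 0.09.

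The 250 bases before each annotated start of transcription were searched on both strands in TAIR10.1 (27443 promoters in all). The G-box CACGTG, bound by light-signalling factors, occurred in 6.49% of all promoters and in 0 of the 33 members. The W-box core TTGAC occurred in 44.9% of all promoters and in 15 members (45.5%), XTH30, XTH19, XTH8 and XTH22 among them, so in members that fell and in members that rose. The brassinosteroid element CGTGTG occurred in 5.37% of all promoters and in 4 members, XTH2, XTH8, XTH23 and XTH25, and the auxin element TGTCTC in 10.9% and in 2 members, XTH3 and XTH6. These are matches of letters within a short window and describe no binding.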

How the data were processed

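Stranded TruSeq libraries were made from total RNA of etiolated hypocotyls, per the labels' protocols. The authors deposited raw counts per gene, and those counts were used as deposited. Reads were processed with FastQC, Trimmomatic and HISAT2, and DESeq2 was used, per the submitters' processing notes. For the build, the counting tool, its strand setting and its handling of shared reads, nothing is given in the labels or headers. A deposited table of normalised counts (signal) did not enter any test.

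Groups came from the labels. Genes were tested with the edgeR quasi-likelihood test (edgeR 4.0.16, limma 3.58.1, R 4.3.3) in 1 fit of 27 libraries and 9 groups, with TMM factors, the default low-count filter, 18 residual degrees of freedom and Benjamini-Hochberg adjustment over 19794 genes at 0.05, two-sided. CPM used TMM-scaled totals, and CPM per kb divided them by the union exon length in TAIR10.1. The procedure was tested on simulated data. Alternatives were DESeq2 1.42.0, its size factors, no filter, compared groups alone, replicate blocks and leaving out each library.

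Values in every library were given for the up to 14 members with the smallest p among those called in at least 1 of the 6 comparisons of UV-B with dark and with a mean log2 CPM of at least 1, then for members that rose. The members, lists and rules were chosen with earlier results of these data known. Same-numbered libraries deviated together (every correlation over 0.1) in WT low dose against dark (lowest 0.133) and in the 3 uvr8-6 dose comparisons (lowest 0.177, 0.156 and 0.215), so the replicate number was read as a pairing there, from the data and not from the labels. The highest correlation between different numbers was above the lowest same-number one in WT low dose against dark (0.285) and in uvr8-6 low and high dose against dark (0.196 and 0.173), and below it in uvr8-6 high against low dose (0.077).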

Additional observations from a re-analysis of the deposited data

Results flagged for a closer look

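Responses to UV-B that differed between a mutant and WT, by the test of the difference itself (edgeR quasi-likelihood, adjusted p below 0.05), are listed here as the mutant's log2 change minus that of WT. At the low dose in xpf-3 the differences were -3.86 for XTH33, -3.11 for XTH30, -2.69 for XTH24, -2.50 for XTH17, -2.25 for XTH23, -1.99 for XTH27, -1.90 for XTH19, -1.75 for XTH4 and -1.62 for XTH8. In the same comparison they were 1.18 for XTH28 and 1.47 for XTH9. At the high dose in xpf-3 the difference was 2.09 for XTH9. Both XTH9 differences were smaller without WT dark replicate 1, at 0.54 for the low and 1.16 for the high dose, and neither then passed (adjusted p 0.342 and 0.109).

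In uvr8-6 the difference was 1.08 for XTH19 at the low dose, and at the high dose it was 1.31 for XTH8, 1.31 for XTH19, 1.06 for XTH27 and 0.94 for XTH5. The uvr8-6 libraries were sequenced in a later run than those of WT. Groups held 3 libraries each, so single libraries were not tested as outliers.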

How the results depend on the processing

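Of 390 member results, 161 passed with all libraries; 43 of these lost the call under at least 1 alternative and 50 others gained one. The direction of a called member reversed in XTH13 only: in xpf-3 its low-dose change was 1.91 and its high-dose change 0.51 without the third dark library, and 1.87 and 0.54 with 3 libraries that stand apart left out (WT dark replicate 1, WT low-dose replicate 1 and xpf-3 dark replicate 3, an alternative chosen after seeing the data). XTH9 in WT at the high dose, not called with all libraries, turned to 0.71 without WT dark replicate 1 and to 0.71 with those 3 left out.

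Counts of members called stayed within 1.5 times of the reported count in the comparisons of WT doses, of xpf-3 doses with the dark and of the uvr8-6 high dose, under every alternative run. For the xpf-3 high dose against its low dose the count was 3, and it was 6 with the compared groups alone, 5 with the replicate block, 5 with that block within each genotype, 5 with the 3 libraries left out, and 2 to 5 without 1 library. For the uvr8-6 low dose it was 6, and 3 with the compared groups alone and 3 to 7 without 1 library. For uvr8-6 dark against WT dark it was 13, and 4 to 15 without 1 library, lowest without uvr8-6 dark replicate 2. For the xpf-3 minus WT difference at the high dose it was 1, and 2 with DESeq2, 0 with the compared groups alone, 2 with the block within each genotype, 0 with the 3 libraries left out and 0 to 3 without 1 library. For the uvr8-6 minus WT difference at the low dose it was 1, and 3 with DESeq2, 0 with the compared groups alone, 2 with either replicate block, 2 with the 3 libraries left out and 0 to 3 without 1 library. The count for xpf-3 dark against WT dark was 0 under all of them. The cause of these shifts was not tested. With the compared groups alone, calls were lost at the low dose for XTH5 and XTH18 in WT, XTH13 in xpf-3 and XTH4, XTH7 and XTH17 in uvr8-6, for XTH16 in both xpf-3 high-dose comparisons, for XTH4, XTH9, XTH17 and XTH22 in uvr8-6 dark against WT dark, and for XTH9, XTH19 (low dose) and XTH27 in the differences of responses. Without the low-count filter or with DESeq2 or its size factors, some calls of XTH5, XTH7, XTH9, XTH12, XTH13, XTH14, XTH16 and XTH33 were lost.

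In the 4 comparisons read as paired, the block within each genotype changed the calls given above for XTH9, XTH14, XTH15, XTH22 and XTH32, and no other. Elsewhere replicates share only a number, and same-numbered libraries did not deviate together throughout. Over all fits without 1 library, the XTH13 changes in xpf-3 ran from -3.45 to 1.91 at the low and from -5.10 to 0.51 at the high dose, and the XTH9 change in WT at the high dose from -0.54 to 0.71. Depth limits XTH6 and XTH29, whose dark groups held at most 5 counts. It also limits XTH33 in xpf-3 at the low dose, where the libraries held 0.493 to 1.06 CPM.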
